A study of Mus musculus with 10 samples.

Results

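Integrins that bind the extracellular matrix were described by the RNA of 10 genes in cells sorted from mouse prostate. The genes encode 6 alpha subunits (Itga1, Itga2, Itga5, Itga8, Itga9 and Itgav) and 4 beta subunits (Itgb1, Itgb5, Itgb6 and Itgb8). They were chosen by name with earlier results of these data known, so counts of calls among them are not independent of these data. Transcripts were assigned to them by their position on genome build mm10. The table held 24554 genes in all, among them 16 other integrin genes. The 10 libraries came from prostates of C57BL/6 mice aged 8 to 12 weeks, with no allele or agent given for any group. Stromal cells (2 libraries) were sorted as negative for CD24 and CD49f. Basal cells (2 libraries) were low for CD24 and high for CD49f. Luminal cells were high for CD24 and low for CD49f, and were split into Sca-1+ (3 libraries) and Sca-1- (3 libraries). All groups shared depletion of cells with lineage markers (Lin-). CD49f is the integrin alpha-6 subunit (Itga6), so the sort itself selected on an integrin that is not among the 10. A protocol for culture on collagen I, a ligand of several integrins, is given for every library, and the labels do not say whether the sorted cells were cultured. Separate animals are not stated for the libraries within a group, so the p-values measure the spread between these libraries, which may be technical.

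Values are FPKM, sequenced fragments scaled for transcript length and library size, summed per gene, so levels can be compared between genes per length. Depth, read from the steps between low values, was about 20400000 to 27200000 fragments, and each library had 9789 to 11300 genes at or above 1 FPKM. The 10 most abundant genes took 11.2% to 16.8% of all FPKM in stromal, basal and Sca-1+ luminal libraries, and 38.1% to 39.4% in Sca-1- luminal libraries. Summed FPKM of 8 fibroblast genes was 5414 to 7248 in stromal libraries, summed FPKM of 5 basal keratinocyte genes was 4625 to 5170 in basal libraries, and in Sca-1- luminal libraries 4 secretory genes summed to 135850 to 167310 FPKM. Ly6a, which encodes Sca-1, was at 677 to 2301 FPKM in the Sca-1+ and 19.9 to 82.8 FPKM in the Sca-1- luminal libraries. Cd24a, which encodes CD24, went against the gates in 1 library: Sca-1+ luminal replicate 1, sorted as high for CD24, had 197 FPKM, below the 226 and 199 FPKM of the basal libraries, sorted as low, while Sca-1+ luminal replicates 2 and 3 had 412 and 1091 FPKM. The 3 Sca-1+ luminal libraries differed from each other. Their fibroblast sums were 4989, 2531 and 369 FPKM in replicates 1, 2 and 3, and their sums of 3 proximal luminal genes (Psca, Krt4 and Ppp1r1b) were 582, 1562 and 3895 FPKM. Results on Sca-1+ luminal cells are therefore also given with replicate 3 as the group's single library, which is then assumed to vary like the libraries of the other groups.

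Each integrin is a pair of 1 alpha and 1 beta subunit that spans the cell membrane, binds matrix outside the cell and links it to actin inside. The beta-1 subunit pairs with many alpha subunits: alpha-1 and alpha-2 make collagen receptors, alpha-5 the classical fibronectin receptor, alpha-8 a nephronectin receptor and alpha-9 a receptor for tenascin-C and others. Alpha-v pairs with beta-1, beta-5, beta-6 and beta-8, and the pairs with beta-6 and beta-8 release active TGF-beta from its latent complex. In glandular epithelia, basal cells sit on the basement membrane while luminal cells face the duct lumen.

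On mm10, Itga1 (chr13:114953096-115101964) and Itga2 (chr13:114833081-114932100) are neighbours on the minus strand. Itga5 lies at chr15:103344286-103366763 (minus), Itga8 at chr2:12106632-12301922 (minus), Itga9 at chr9:118606690-118901003 (plus) and Itgav at chr2:83724397-83806916 (plus). Itgb1 lies at chr8:128685654-128733200 (plus), Itgb5 at chr16:33829665-33949338 (plus), Itgb6 at chr2:60598292-60722643 (minus) and Itgb8 at chr12:119158022-119238802 (minus). A single transcript carried at least 89.8% of the mean FPKM of each gene except Itga1, whose leading transcript carried 56.2%. The gene Pelo lies within Itga1, and antisense genes overlap Itga1, Itga8 and Itga9. The labels do not say whether strand was kept, so reads of such overlapping genes may be shared, and the low values of these 3 integrins are uncertain for that reason too.

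The 250 bases upstream of 4 starts are shown because Itga5 and Itgb6 had the largest log2 changes of the 10 genes, Itgb1 is the shared partner, and Itgb6 has a pair of annotated starts with measured RNA. They are RefSeq sequences of GRCm38.p6, 5′ to 3′ on the gene's strand, with motif matches in capitals; the Itgb6 windows held no match. The Itgb6 inner start has chr2:60673694-60673943 upstream of it and the outer start chr2:60722604-60722853 (both minus strand), Itga5 has chr15:103366792-103367041 (minus) and Itgb1 has chr8:128685404-128685653 (plus).
Itgb6, inner start: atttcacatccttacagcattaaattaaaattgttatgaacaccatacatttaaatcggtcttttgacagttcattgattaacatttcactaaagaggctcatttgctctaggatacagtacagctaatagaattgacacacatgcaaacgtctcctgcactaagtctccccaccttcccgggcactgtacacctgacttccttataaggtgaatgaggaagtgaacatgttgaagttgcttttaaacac
Itgb6, outer start: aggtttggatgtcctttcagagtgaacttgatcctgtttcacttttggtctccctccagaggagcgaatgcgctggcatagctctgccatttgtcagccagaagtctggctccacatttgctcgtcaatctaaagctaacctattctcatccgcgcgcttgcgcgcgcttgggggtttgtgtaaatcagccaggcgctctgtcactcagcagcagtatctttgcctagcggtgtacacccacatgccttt
Itga5: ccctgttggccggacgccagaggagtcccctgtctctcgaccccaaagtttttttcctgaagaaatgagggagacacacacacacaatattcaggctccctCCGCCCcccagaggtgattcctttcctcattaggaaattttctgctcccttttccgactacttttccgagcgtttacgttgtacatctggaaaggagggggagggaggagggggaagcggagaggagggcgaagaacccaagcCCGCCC
Itgb1: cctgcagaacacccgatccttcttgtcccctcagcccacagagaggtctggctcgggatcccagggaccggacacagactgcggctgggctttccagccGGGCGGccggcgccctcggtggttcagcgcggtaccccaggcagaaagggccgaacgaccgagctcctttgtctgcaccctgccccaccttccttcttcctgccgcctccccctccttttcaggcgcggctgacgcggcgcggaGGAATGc
Both strands were searched for 4 motifs: the AP-1 site TGANTCA, the GC box GGGCGG, the TATA box TATAAA and the TEAD site GGAATG. Of 32851 promoter windows of this length, 6.75% held the AP-1 letters, 32.7% the GC box, 12.4% the TATA box and 12.6% the TEAD site. Itga5 held 2 GC boxes, both on the opposite strand, at 149 and 6 bases upstream. Itgb1 held a GC box at 151 bases and a TEAD match at 7 bases upstream. Itgb5, not shown, held 3 GC boxes, at 199, 63 and 34 bases upstream. None of these letters was found in the windows of the other 7 genes. The inner Itgb6 window was 38% G and C, against 52.0% for the outer one and a median of 52.4% for all windows. For Itga9 the sequence table gives the start of a shorter transcript, not that of the one measured here. A match is only a match of letters.

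RNA of the matrix-binding integrins was least abundant in Sca-1- luminal cells. Summed over the 10 genes, it came to 615 and 491 FPKM in stromal libraries, 812 and 929 in basal libraries, 641, 406 and 380 in Sca-1+ luminal libraries, and 105, 98.9 and 66.2 in Sca-1- luminal libraries. The Sca-1- luminal sums were below those of every other library. In bulk RNA, fewer cells of a type and less RNA per cell cannot be told apart. All 10 genes reached 1 FPKM in 2 or more libraries and were tested, Itga8 only through Sca-1+ luminal replicates 1 and 2.

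**Figure D1:**
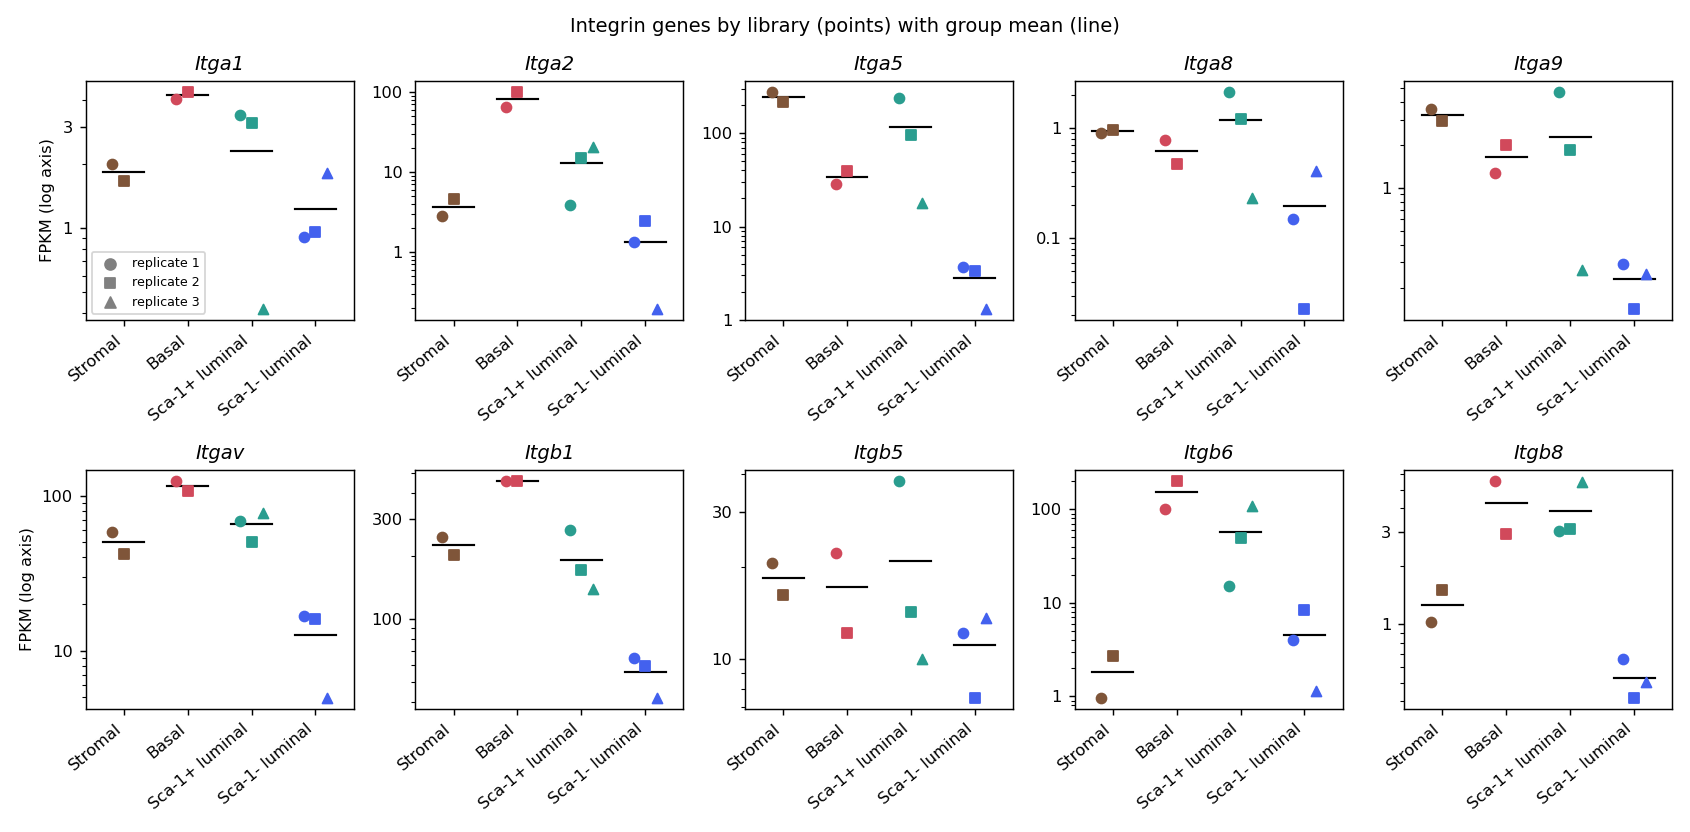
FPKM of each integrin gene in each library (points, log axis, own range for each gene) with the group mean (line), for stromal (n = 2), basal (n = 2), Sca-1+ luminal (n = 3) and Sca-1- luminal (n = 3) libraries. Sca-1- luminal libraries lie lowest for Itga5, Itgav and Itgb1, basal libraries highest for Itga2, Itgav and Itgb1, and Itga5 runs over 17.9 to 236 FPKM within Sca-1+ luminal libraries.

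Differences were tested with limma on log2(FPKM + 1) in 1 fit of all 10 libraries, and a gene was called at an adjusted p under 0.05 over 12437 genes. On this scale the changes of genes near 1 FPKM are understated. In Sca-1+ over Sca-1- luminal cells, 6 of the 10 genes were called higher (Itga2, Itga5, Itgav, Itgb1, Itgb6 and Itgb8), where 21.8% of all genes were called higher. With Sca-1+ luminal replicate 3 alone the same 6 genes were called higher, where 10.3% of all genes were. In basal over Sca-1- luminal cells, 7 genes were called higher (those 6 and Itga1), beside 20.1% of all genes. No member was called lower in these 2 comparisons by limma, where 13.3% and 26% of all genes were, and 0 members had an unadjusted p under 0.05 in that direction. The median log2 change of the 10 genes was 1.69 and 2.39 in these comparisons, and that of all genes was 0.19 and -0.05.

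Basal cells stood above Sca-1+ luminal cells in 2 genes, Itga2 and Itgb1, beside 4.39% of all genes called higher and 15.4% called lower. Neither was called without basal replicate 1 or without basal replicate 2, or when only the 2 groups were fitted. With Sca-1+ luminal replicate 3 alone, Itga1, Itga9 and Itgb1 were called higher in basal cells and Itga2 was not, beside 4.59% of all genes called higher and 11.3% called lower. Without replicate 3, Itgb6 was also called higher (2.33, limma, adjusted p = 0.0371) and Itga5 lower (-2.13, limma, adjusted p = 0.00772). The shares of all genes called without that library are not given here. Stromal over Sca-1- luminal cells had 4 genes called higher (Itga5, Itga9, Itgav and Itgb1), beside 25.2% of all genes called higher and 27.4% called lower. Stromal over basal cells had 3 genes called lower (Itga2, Itgb6 and Itgb8), beside 9.11% of all genes called lower and 13.4% called higher. In a fit of only those 2 groups Itga1, Itgav and Itgb1 were also called lower and Itga5 higher. The share of all genes called in that fit is not given here, so no weight is put on these added calls. In the fit with Sca-1+ luminal replicate 3 alone, Itga1 and Itgb1 were also called lower and Itga5 higher, beside 11.1% of all genes called lower and 17.3% called higher. Stromal over Sca-1+ luminal cells had 2 genes called lower (Itgb6 and Itgb8), beside 11.6% of all genes called lower and 1.76% called higher. With Sca-1+ luminal replicate 3 alone, 3 genes were called higher in stromal cells (Itga1, Itga5 and Itga9, beside 14.6% of all genes) and 3 lower (Itga2, Itgb6 and Itgb8, beside 16.3%). These comparisons share libraries and are not independent.

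**Figure D2:**
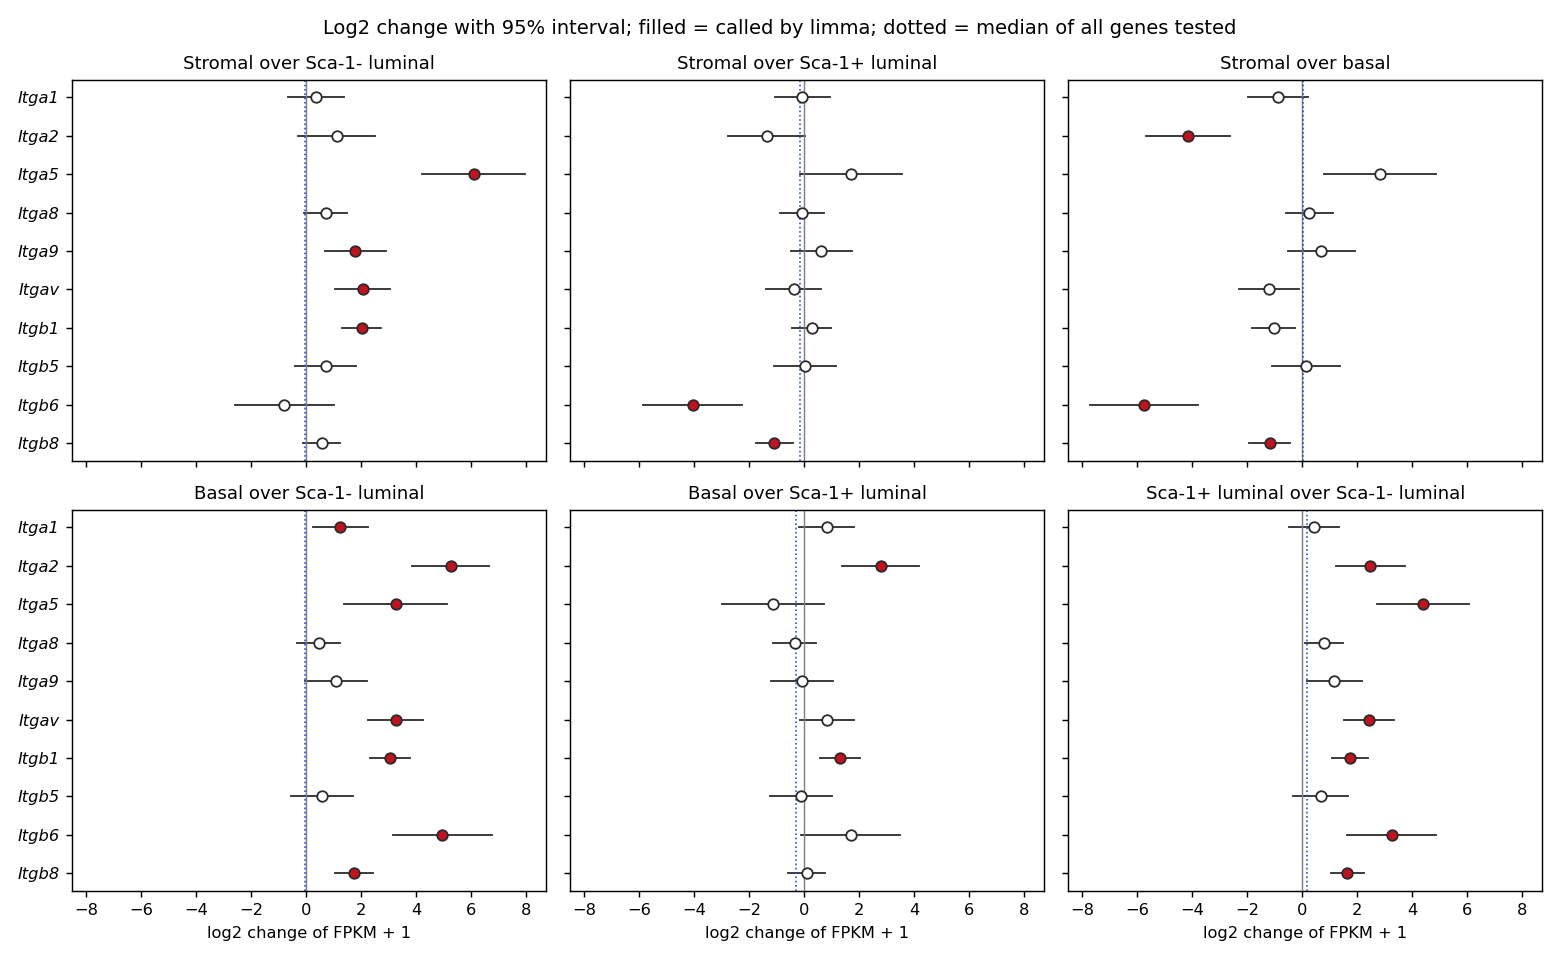
Log2 change of FPKM + 1 of each integrin gene in the 6 comparisons (points) with its 95% interval (lines). Filled points are called by limma, and the dotted line is the median of all genes tested. Itga5 has the highest change of stromal over Sca-1- luminal cells (6.09), and Itgb6 the lowest of stromal over basal cells (-5.74).

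Itgb1, the common beta partner, was the most abundant of the 10 genes in every basal and luminal library, and Itga5 exceeded it in both stromal libraries. It was at 247 and 203 FPKM in stromal libraries, 459 and 458 in basal libraries, 266, 171 and 139 in Sca-1+ luminal libraries, and 64.9, 59.6 and 41.9 in Sca-1- luminal libraries. Basal libraries were highest and Sca-1- luminal libraries lowest, with no overlap of either with any other group, while the stromal and Sca-1+ luminal ranges overlapped. The log2 change was 3.05 ± 0.32 (SE) in basal over Sca-1- luminal cells (limma, adjusted p = 9.63e-05), 2.02 ± 0.32 in stromal over Sca-1- luminal cells (limma, adjusted p = 0.000847) and 1.74 ± 0.29 in Sca-1+ over Sca-1- luminal cells (limma, adjusted p = 0.00249). In basal over Sca-1+ luminal cells it was 1.30 ± 0.32 (limma, adjusted p = 0.0205), which was also lost without Sca-1+ luminal replicate 2 (limma, adjusted p = 0.0639). Set against the 5 alpha partners among the 10 genes, Itgb1 RNA was below their sum in stromal libraries and above it in the others. The ratio of Itgb1 to the sum of Itga1, Itga2, Itga5, Itga8 and Itga9 was 0.861 and 0.899 in stromal libraries, 4.61 and 3.14 in basal libraries, 1.06, 1.47 and 3.54 in Sca-1+ luminal libraries, and 10.2, 8.59 and 10.5 in Sca-1- luminal libraries. The laminin receptor subunits Itga3 and Itga6, which are not among the 10 and also pair with beta-1, summed to 2.54 and 7.41 FPKM in stromal libraries, 417 and 464 in basal libraries, 39.4, 78.8 and 98.97 in Sca-1+ luminal libraries, and 40.3, 60.7 and 19.1 in Sca-1- luminal libraries. With these 2 added to the partners, the ratio was 0.854 and 0.871 in stromal libraries, 0.888 and 0.752 in basal libraries, 0.918, 0.877 and 1.01 in Sca-1+ luminal libraries, and 1.39, 0.881 and 1.81 in Sca-1- luminal libraries. The ratio depends on which partners are counted.

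Itgav, the alpha partner of beta-5, beta-6 and beta-8, followed a similar order. It was at 58.2 and 41.8 FPKM in stromal libraries, 125 and 107 in basal libraries, 68.3, 50.5 and 77.9 in Sca-1+ luminal libraries, and 16.8, 16.0 and 4.96 in Sca-1- luminal libraries. Basal libraries were above and Sca-1- luminal libraries below all others, and stromal and Sca-1+ luminal libraries overlapped. The log2 change was 3.26 ± 0.44 in basal, 2.43 ± 0.40 in Sca-1+ luminal and 2.05 ± 0.44 in stromal cells, each over Sca-1- luminal cells (limma, adjusted p = 0.000379, 0.00246 and 0.00409).

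Itga5, the fibronectin receptor subunit, had the largest log2 change of the 10 genes in stromal over Sca-1- luminal cells. It was at 278 and 215 FPKM in stromal libraries, 28.8 and 39.1 in basal libraries, 236, 95.6 and 17.9 in Sca-1+ luminal libraries, and 3.71, 3.35 and 1.30 in Sca-1- luminal libraries. The stromal mean was 88.4 times the Sca-1- luminal mean, and Sca-1+ luminal libraries overlapped both the stromal and the basal ranges. The log2 change over Sca-1- luminal cells was 6.09 ± 0.83 in stromal cells (limma, adjusted p = 0.000404), 3.26 ± 0.83 in basal cells (limma, adjusted p = 0.0104) and 4.39 ± 0.74 in Sca-1+ luminal cells (limma, adjusted p = 0.00286). The basal call was lost without basal replicate 2 (limma, adjusted p = 0.0687). In stromal over basal cells the change was 2.83 ± 0.91 (limma, adjusted p = 0.0515), just short of the threshold. Within Sca-1+ luminal libraries Itga5 was highest where the fibroblast sum was highest, and the part of fibroblast RNA in its value was not tested. In replicate 3 the fibroblast sum was 369 FPKM, against 684 and 498 FPKM in basal libraries and 98.4, 76 and 135 FPKM in Sca-1- luminal libraries. Most of the basal sums was Dcn (655 and 459 FPKM), and the other 7 fibroblast genes were higher in replicate 3 than in each basal library. All 8 were higher there than in each Sca-1- luminal library. Over all genes, the share that was higher in this way in replicate 3 was not counted. Itga5 with that library alone changed by 2.39 over Sca-1- luminal cells (limma, adjusted p = 0.00887).

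Itga2, the collagen receptor subunit of epithelia and platelets, was highest in basal cells. It was at 2.79 and 4.62 FPKM in stromal libraries, 64.5 and 100.2 in basal libraries, 3.90, 15.0 and 20.4 in Sca-1+ luminal libraries, and 1.32, 2.47 and 0.194 in Sca-1- luminal libraries. Both basal libraries exceeded every other library, and each Sca-1+ luminal library exceeded each Sca-1- luminal library. The log2 change was 5.26 ± 0.63 in basal over Sca-1- luminal cells, 2.78 ± 0.63 in basal over Sca-1+ luminal cells and -4.14 ± 0.69 in stromal over basal cells (limma, adjusted p = 0.000184, 0.0146 and 0.00328). It was 2.48 ± 0.56 in Sca-1+ over Sca-1- luminal cells (limma, adjusted p = 0.00968) and 3.33 with replicate 3 alone. With that library alone, the change of basal over Sca-1+ luminal cells was 1.93 and was not called (limma, adjusted p = 0.0639).

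Itga1, the other collagen receptor subunit here, was low throughout, on 60 to 471 fragments per library. It was at 2.0 and 1.67 FPKM in stromal libraries, 4.05 and 4.38 in basal libraries, 3.39, 3.14 and 0.417 in Sca-1+ luminal libraries, and 0.911, 0.959 and 1.83 in Sca-1- luminal libraries. Both basal libraries were highest, and the other 3 groups overlapped. The log2 change of basal over Sca-1- luminal cells was 1.25 ± 0.45 (limma, adjusted p = 0.0455), a call that was lost in 10 of 19 alternative fits, including those without either basal library and that of the leading transcript alone. With Sca-1+ luminal replicate 3 alone, the change in Sca-1+ over Sca-1- luminal cells turned to -0.63, against 0.43 with all 3 libraries; neither was called. In basal over Sca-1+ luminal cells the change with that library alone was 1.88 and was called (limma, adjusted p = 0.00719).

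Itga9, a tenascin-C and VCAM-1 receptor subunit, was at 3.54 and 2.94 FPKM in stromal libraries, 1.28 and 1.99 in basal libraries, 4.69, 1.85 and 0.267 in Sca-1+ luminal libraries, and 0.294, 0.141 and 0.249 in Sca-1- luminal libraries. Stromal libraries were above both basal and Sca-1- luminal libraries, and the Sca-1+ luminal range overlapped all 3. The log2 change of stromal over Sca-1- luminal cells was 1.79 ± 0.50 (limma, adjusted p = 0.0136). It was not called without stromal replicate 1 or stromal replicate 2 (limma, adjusted p = 0.0842 and 0.0522). In basal over Sca-1+ luminal cells it was called with Sca-1+ luminal replicate 3 alone (1.04; limma, adjusted p = 0.0385). Itga8, a nephronectin receptor subunit of mesenchymal cells, was near or under 1 FPKM in most libraries, on 3 to 327 fragments. It was at 0.914 and 0.969 FPKM in stromal libraries, 0.778 and 0.473 in basal libraries, 2.15, 1.21 and 0.232 in Sca-1+ luminal libraries, and 0.151, 0.0226 and 0.411 in Sca-1- luminal libraries. Sca-1+ luminal libraries spanned the stromal and basal ranges and overlapped that of Sca-1- luminal libraries. It was called in none of the 6 comparisons by limma. At an unadjusted p under 0.05 it differed in 1, Sca-1+ over Sca-1- luminal cells, but it had passed the filter only through 2 of those Sca-1+ luminal libraries, so that p supports nothing.

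Itgb6, the epithelial beta subunit whose pair with alpha-v activates latent TGF-beta, was high in basal and Sca-1+ luminal cells. It was at 0.967 and 2.67 FPKM in stromal libraries, 101 and 203 in basal libraries, 15.0, 49.9 and 108 in Sca-1+ luminal libraries, and 3.98, 8.47 and 1.15 in Sca-1- luminal libraries. Basal and Sca-1+ luminal libraries overlapped each other and lay above all stromal and Sca-1- luminal libraries, which also overlapped. The log2 change was -5.74 ± 0.88 in stromal over basal cells and 4.95 ± 0.80 in basal over Sca-1- luminal cells (limma, adjusted p = 0.00247 and 0.000984). It was -4.05 ± 0.80 in stromal over Sca-1+ luminal cells (limma, adjusted p = 0.0102), which was lost without stromal replicate 1 (limma, adjusted p = 0.108). In Sca-1+ over Sca-1- luminal cells it was 3.26 ± 0.72 (limma, adjusted p = 0.00875) with all libraries and 4.55 with replicate 3 alone.

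Within Sca-1+ luminal libraries, Itgb6 was highest in the library with the least fibroblast RNA and the most proximal luminal RNA. Itga2, Itgav and Itgb8 were also highest in replicate 3. The other 6 genes (Itga1, Itga5, Itga8, Itga9, Itgb1 and Itgb5) were highest in replicate 1 and lowest in replicate 3, in the order of the fibroblast sum. Summed smooth muscle markers were at 331, 433 and 34.1 FPKM and endothelial markers at 29.6, 19.9 and 4.84 FPKM in replicates 1, 2 and 3. Across Sca-1+ luminal replicates 1, 2 and 3 the basal markers summed to 639, 1102 and 3244 FPKM, of which Krt15 gave 571, 935 and 3225. For the same 3 libraries, in that order, Krt5 measured 5.92, 19.97 and 7.46 FPKM, with 382 and 535 FPKM in basal cells. Krt14 measured 57.4, 139 and 9.40 FPKM in the same 3 libraries, with 1956 and 1866 FPKM in basal cells. The part of other cell types in these values was not tested.

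**Figure D3:**
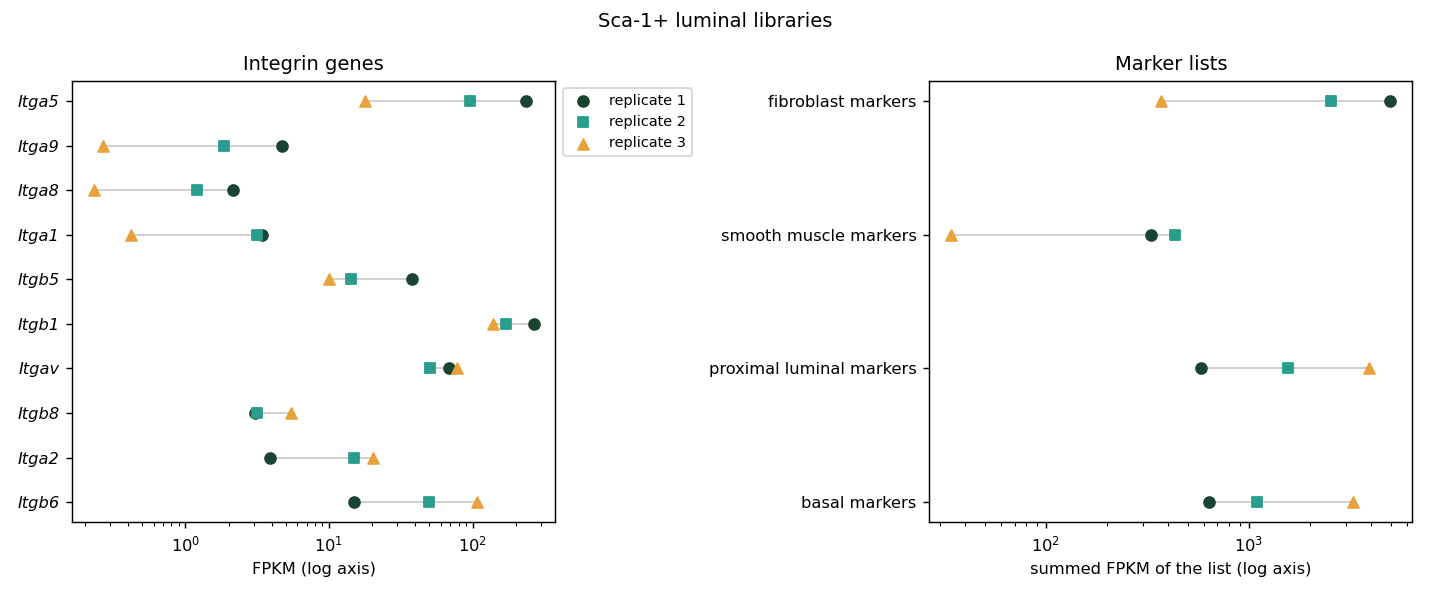
FPKM of the 10 integrin genes (left) and summed FPKM of 4 marker lists (right) in the 3 Sca-1+ luminal libraries, each marked by its own symbol, on log axes; grey lines span the lowest to the highest library. Replicate 3 has the lowest Itga5 (17.9 FPKM) and fibroblast sum (369 FPKM) and the highest Itgb6 (108 FPKM) and proximal luminal sum (3895 FPKM).

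Nearly all Itgb6 RNA was assigned to transcripts of the inner start, which lies 48910 bases downstream of the outer one. The 2 transcripts of the inner start summed to 0.852 and 2.67 FPKM in stromal libraries, 101 and 203 in basal libraries, 15.0, 49.9 and 108 in Sca-1+ luminal libraries, and 3.98, 8.47 and 0.893 in Sca-1- luminal libraries. The 2 transcripts of the outer start were listed at 0 in 8 of the 10 libraries. They were at 0.115 FPKM in stromal replicate 1 and 0.254 FPKM in Sca-1- luminal replicate 3. These are Cufflinks estimates that divide fragments between overlapping transcripts, so they do not locate starts by themselves.

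**Figure D4:**
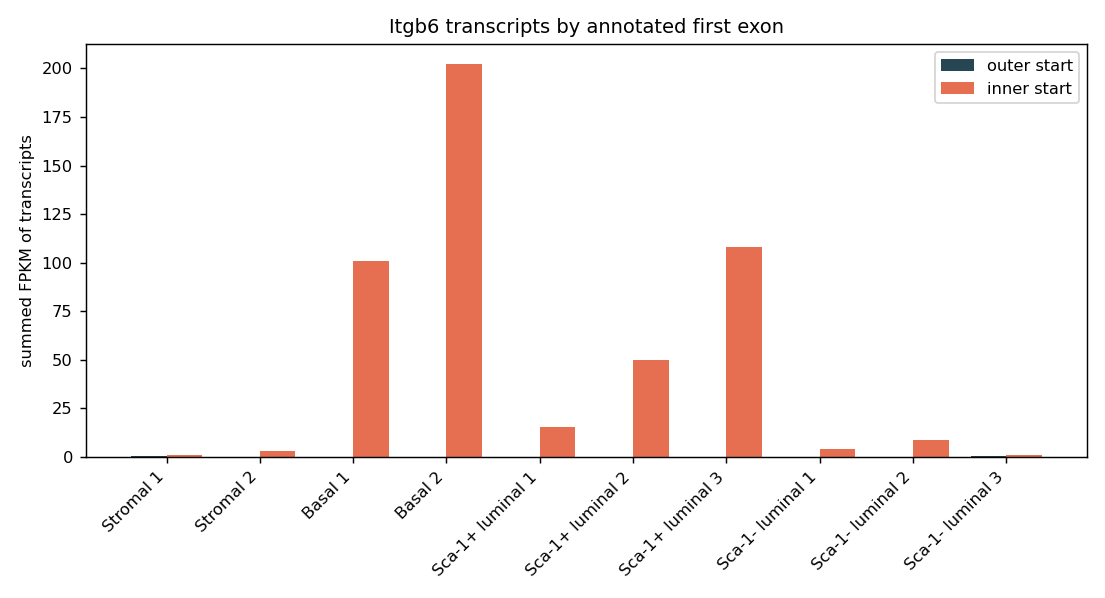
Summed FPKM of the Itgb6 transcripts that begin at the outer (left bar) and the inner (right bar) annotated start, in each library. The inner start reaches 203 FPKM in a basal library, and the outer start is at 0 in 8 libraries and at most 0.254 FPKM.

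Itgb8, the other beta subunit known for activating latent TGF-beta, was low, on 29 to 390 fragments. It was at 1.03 and 1.51 FPKM in stromal libraries, 5.56 and 2.96 in basal libraries, 3.06, 3.13 and 5.44 in Sca-1+ luminal libraries, and 0.660, 0.417 and 0.506 in Sca-1- luminal libraries. Basal and Sca-1+ luminal libraries overlapped, stromal libraries lay below both and Sca-1- luminal libraries below all. The log2 change over Sca-1- luminal cells was 1.74 ± 0.30 in basal and 1.64 ± 0.27 in Sca-1+ luminal cells (limma, adjusted p = 0.00138 and 0.00248). In stromal over basal cells it was -1.18 ± 0.33 (limma, adjusted p = 0.0301) and in stromal over Sca-1+ luminal cells -1.08 ± 0.30 (limma, adjusted p = 0.0433). The first of these was not called in 4 of 19 alternative fits, among them those without basal replicate 1 or either stromal library, and the second not in 12 of 19.

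Itgb5, a vitronectin receptor subunit with alpha-v, differed little between groups. It was at 20.6 and 16.1 FPKM in stromal libraries, 22.1 and 12.2 in basal libraries, 38, 14.3 and 10.0 in Sca-1+ luminal libraries, and 12.2, 7.49 and 13.6 in Sca-1- luminal libraries. Neighbouring groups in the order of their means overlapped, and both stromal libraries lay above each Sca-1- luminal library. It was called in none of the 6 comparisons by limma, had no unadjusted p under 0.05, and was called in none of the 19 alternative fits of each. The 95% interval of its log2 change in stromal over Sca-1- luminal cells ran from -0.42 to 1.83.

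The make-up of the partner subunits differed between the groups. Among the 3 beta subunits that pair with alpha-v only, Itgb6 made up 4.29% to 13.2% of the FPKM in stromal libraries, 78.5% to 93.0% in basal libraries, 26.8% to 87.5% in Sca-1+ luminal libraries and between 7.51% and 51.7% in Sca-1- luminal libraries. Itgb5 made up 79.4% to 91.2% in stromal libraries and 5.60% to 17.2% in basal libraries. The platelet and endothelial beta-3 subunit (Itgb3) also pairs with alpha-v and was at 5.64 and 4.68 FPKM in stromal libraries and 0.369 and 0.795 in basal libraries. Counted with it, Itgb3 made up 18.76% to 19.99% of the 4 beta subunits in stromal libraries and 0.287% to 0.364% in basal libraries. Among the 5 listed alpha subunits that pair with beta-1 only, Itga5 made up 95.5% to 96.8% in stromal libraries, 26.7% to 29.0% in basal libraries and 45.7% to 94.4% in Sca-1+ luminal libraries. Itga2 made up 0.973% to 2.05% in stromal libraries, 64.9% to 68.6% in basal libraries and 1.56% to 52.0% in Sca-1+ luminal libraries. These are shares of RNA, and the protein pairs were not measured.

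**Figure D5:**
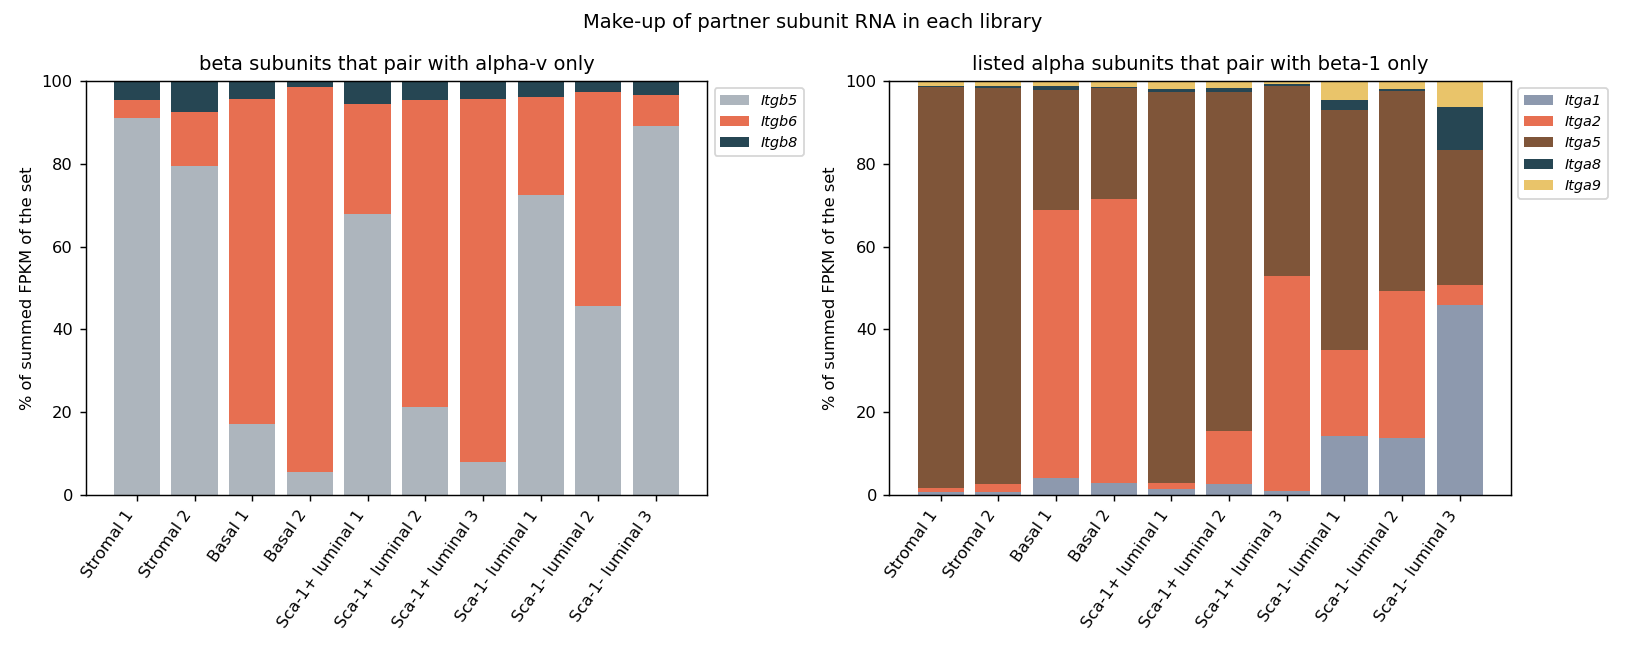
Share of summed FPKM of the beta subunits that pair with alpha-v only (left) and of the listed alpha subunits that pair with beta-1 only (right) in each library. Itgb6 makes up 78.5% to 93.0% of the beta set in basal libraries and Itga5 95.5% to 96.8% of the alpha set in stromal libraries.

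Other integrin genes set the 10 in context. Of 6 further collagen and laminin receptor genes 5 were tested. Itga3, Itga6 and Itgb4, subunits of laminin receptors, were called higher in basal over both luminal groups and lower in stromal cells than in all 3 epithelial groups. Of all genes, 20.1% and 4.39% were called higher in basal over Sca-1- and over Sca-1+ luminal cells. In stromal over basal, Sca-1- luminal and Sca-1+ luminal cells 9.11%, 27.4% and 11.6% of all genes were called lower. When replicate 3 stood alone, Itga3 was called in basal over Sca-1+ luminal cells, and Itga6 and Itgb4 were not. Itga6 encodes the sorted antigen CD49f, so the sort selected the direction of its changes and they are not a separate result. Itga7 and Itga11 were called higher in stromal over basal and over Sca-1- luminal cells, beside 13.4% and 25.2% of all genes. Itga11, a fibroblast collagen receptor subunit, was at 3.18 and 0.999 FPKM in stromal libraries and at most 0.055 in basal and Sca-1- luminal libraries. It passed the filter only through stromal replicate 1 and Sca-1+ luminal replicates 1 and 2 (2.46 and 1.07 FPKM). Its log2 changes were 1.49 ± 0.47 and 1.5 ± 0.43, and their p-values support nothing. Itga11 failed the filter in the fit with replicate 3 alone. The 10 leukocyte and platelet integrin genes summed to 7.36 to 7.66 FPKM in stromal libraries, 0.878 to 1.63 in basal libraries, between 0.778 and 5.52 in Sca-1+ luminal libraries, and between 1.18 and 1.43 in Sca-1- luminal libraries. Only Itgb3 among them passed the filter, through the stromal libraries and Sca-1+ luminal replicates 1 and 2 (3.58 and 1.14 FPKM). Its log2 change was 1.97 ± 0.54 in stromal over basal cells (limma, adjusted p = 0.0271). Over Sca-1- luminal cells it was 2.40 ± 0.49 (limma, adjusted p = 0.0031). Basal and Sca-1- luminal libraries all stayed under 1 FPKM, so these p-values support nothing.

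Genes of integrin ligands were mostly higher in stromal and Sca-1+ luminal cells than in Sca-1- luminal cells. Of 20 ligand genes tested, 18 were called higher in stromal over Sca-1- luminal cells, 17 in Sca-1+ over Sca-1- luminal cells and 7 in basal over Sca-1- luminal cells, beside 25.2%, 21.8% and 20.1% of all genes, and the rest were not called. In the fit with Sca-1+ luminal replicate 3 alone, 13 were called higher in basal over Sca-1- luminal cells, beside 23.7% of all genes. In stromal over basal cells 10 were called higher and 1 lower, beside 13.4% and 9.11% of all genes. In basal over Sca-1+ luminal cells 7 were called lower and 1 higher, beside 15.4% and 4.39% of all genes. Among the 7 were the collagens Col1a1, Col1a2 and Col3a1. With Sca-1+ luminal replicate 3 alone these collagens were not called in basal over Sca-1+ luminal cells. That library had Col1a1 at 22.4 FPKM, against 360 and 190 FPKM in replicates 1 and 2 and 7.16 and 8.77 FPKM in basal libraries. In that fit fewer ligands were called lower and more higher in basal over Sca-1+ luminal cells. Of all genes, too, fewer were called lower and slightly more higher there. More ligands, and more of all genes, were also called higher in stromal over basal cells. Over Sca-1- luminal cells, the median log2 changes of the list were 4.56 in stromal, 3.11 in Sca-1+ luminal and 1.57 in basal cells, against -0.06, 0.19 and -0.05 over all genes. The list holds 3 of the fibroblast markers (Col1a1, Col1a2 and Col3a1). Fewer of the 20 were called in Sca-1+ over Sca-1- luminal cells when replicate 3 stood alone, and fewer of all genes were called there too. Col3a1, a fibrillar collagen, was at 567 and 383 FPKM in stromal libraries, 9.96 and 10.9 in basal libraries, 473, 162 and 31.4 in Sca-1+ luminal libraries, and 4.50, 2.47 and 10.4 in Sca-1- luminal libraries. Within Sca-1+ luminal libraries it was ordered like Itga5 and the fibroblast sum. Ccn1, a matricellular ligand of alpha-v integrins, was instead highest in basal cells, at 356 and 370 FPKM in stromal libraries, 5607 and 2836 in basal libraries, 873, 598 and 497 in Sca-1+ luminal libraries, and 381, 206 and 270 in Sca-1- luminal libraries. It was the only ligand called higher in basal over Sca-1+ luminal cells (2.64 ± 0.43) and the only one called lower in stromal over basal cells (-3.45 ± 0.47; limma, adjusted p = 0.00356 and 0.00162). Thbs1, thrombospondin 1, was at 1218 and 1290 FPKM in stromal libraries and 504 and 292 in basal libraries. Npnt, nephronectin, the ligand of alpha-8, was at 1.34 and 1.72 FPKM in stromal libraries and 3.88, 3.71 and 10.3 in Sca-1+ luminal libraries, and was the only ligand called lower in stromal over Sca-1+ luminal cells (-1.34 ± 0.38; limma, adjusted p = 0.0459). Vtn, vitronectin, was the only one called higher there, where 1.76% of all genes were called higher and 11.6% lower. Its log2 change was 1.32 ± 0.37 (limma, adjusted p = 0.0431). When replicate 3 stood alone for the Sca-1+ luminal cells, 17 ligands were called higher there, beside 14.6% of all genes, and Npnt was called lower.

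In the latent TGF-beta list, which holds the substrate of the beta-6 and beta-8 integrins, 11 of 12 genes were tested. Of these, 10 were called higher in stromal, 4 in basal and 7 in Sca-1+ luminal cells, each over Sca-1- luminal cells. Of all genes, 25.2%, 20.1% and 21.8% were. Fewer of the list were called in Sca-1+ over Sca-1- luminal cells when replicate 3 stood alone, and fewer of all genes were called there too. The median log2 changes with all libraries were 1.9, 0.96 and 1.53, against -0.06, -0.05 and 0.19 over all genes. Tgfb1, the ligand, was at 16.9 and 25.7 FPKM in stromal libraries, 36.6 and 58.1 in basal libraries, 10.4, 11.8 and 3.16 in Sca-1+ luminal libraries, and 2.60, 2.04 and 1.31 in Sca-1- luminal libraries. Basal libraries were highest, and the change over Sca-1+ luminal cells was 2.48 ± 0.47 (limma, adjusted p = 0.00715). Ltbp4, which tethers latent TGF-beta to the matrix, was at 333 and 451 FPKM in stromal libraries, 112 and 90.4 in basal libraries, 308, 156 and 35.2 in Sca-1+ luminal libraries, and 5.77, 5.29 and 7.01 in Sca-1- luminal libraries. Lrrc32, a membrane carrier of latent TGF-beta, was the gene of the list called higher in stromal over basal cells, beside 13.4% of all genes. Its log2 change was 4.40 ± 0.98 (limma, adjusted p = 0.0117). When replicate 3 stood alone for the Sca-1+ luminal cells, further genes of the list were called higher in stromal over basal cells and Tgfb1 lower. More of all genes were then also called in each direction. The Tgfbr2 receptor was called higher in basal (1.93 ± 0.36) and in Sca-1+ luminal cells (1.98 ± 0.32), each over Sca-1- luminal cells (limma, adjusted p = 0.00195 and 0.00231).

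Among 23 tested activators, adaptors and kinases, which couple integrins to actin, 14 were called higher and 4 lower in basal over Sca-1- luminal cells, 10 higher and 1 lower in basal over Sca-1+ luminal cells, and 3 higher and 9 lower in stromal over basal cells. Of all genes, 20.1% were called higher and 26% lower in the first of these comparisons, 4.39% and 15.4% in the second, and 13.4% and 9.11% in the third. The median log2 changes of the list were 1.48, 0.96 and -0.85, against -0.05, -0.29 and 0.02 over all genes. In Sca-1+ over Sca-1- luminal cells 10 were called higher and 3 lower, beside 21.8% and 13.3% of all genes. In stromal over Sca-1- luminal cells 9 were called higher and 4 lower, beside 25.2% and 27.4%. In stromal over Sca-1+ luminal cells 0 were called higher and 2 lower, beside 1.76% and 11.6%. With Sca-1+ luminal replicate 3 alone, fewer of the list were called higher in basal over Sca-1+ luminal cells, while slightly more of all genes were. Sharpin, the gene called lower there with all libraries, was then not called. Filamin A (Flna), an actin crosslinker that binds beta tails, was at 57.2 and 68.4 FPKM in stromal libraries, 271 and 381 in basal libraries, 78.8, 77.0 and 56.5 in Sca-1+ luminal libraries, and 7.64, 19.8 and 6.74 in Sca-1- luminal libraries. Its log2 change was 4.85 ± 0.40 in basal over Sca-1- luminal cells (limma, adjusted p = 3.03e-05). Integrin-linked kinase (Ilk) was at 37.4 and 60.3 FPKM in stromal libraries and 231 and 361 in basal libraries (-2.58 ± 0.32; limma, adjusted p = 0.00105). The kindlins Fermt1 and Fermt2, which activate integrins at the beta tail, changed in opposite directions in stromal over basal cells. Fermt1 was at 0.446 and 0.163 FPKM in stromal libraries and 54.3 and 59.8 in basal libraries. Fermt2 was above Fermt1 in every luminal library. In Sca-1+ luminal libraries Fermt1 was at 4.14, 8.44 and 3.77 FPKM and Fermt2 at 152, 108 and 20.3. In Sca-1- luminal libraries Fermt1 was at 8.47, 7.37 and 5.45 FPKM and Fermt2 at 30.3, 30.4 and 17.1. Fermt1 was called lower in stromal over basal cells (-5.48 ± 0.36; limma, adjusted p = 6.2e-05), while Fermt2, at 203 and 231 FPKM in stromal libraries and 37.7 and 37.8 in basal libraries, was called higher (2.49 ± 0.75; limma, adjusted p = 0.0401). Lims2 and Rap1a were the other 2 called higher there. Of 8 syndecans and tetraspanins, which sit beside integrins in the membrane, Sdc1, Sdc4 and Cd9 were called higher and Cd81, Cd82 and Tspan1 lower in basal over Sca-1- luminal cells, beside 20.1% of all genes called higher and 26% called lower. The median log2 change of these 8 genes was -0.51.

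For each of the 10 genes, the 2 other genes with the most similar profile were taken by the root mean square difference of centred log2(FPKM + 1) over the 10 libraries. For Itgb6, Inava was at 0.60, against a spread of its own of 2.38. Itga5 was nearest to Fst (follistatin) at 0.36 and Fgfr1 at 0.40, with a spread of 2.43. Itga2 was nearest to Cnn2 at 0.49 and Tpm1, a tropomyosin, at 0.59, with a spread of 1.99. Itgav was nearest to Rock2 at 0.23 and Runx1 at 0.29, and Itgb1 to Bicd2 and Igsf3, both at 0.20, with spreads of 1.31 and 1.14. For Itga1 (Plekha5), Itga8 (Col6a4, Hvcn1), Itga9 (Ptprm, Rftn1), Itgb5 (Arl5a, Icmt) and Itgb8 (Arid5a, Mprip) the spread was smaller, at 0.47 to 0.82. Among the 10 genes themselves, Itga8 and Itgb5 were each other's nearest, at 0.275, beside spreads of 0.466 and 0.586, Itgav and Itgb1 likewise, at 0.48, and Itga2 and Itgb6, at 0.97.

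The direction of changes over all genes depended on the scaling between libraries. In Sca-1+ over Sca-1- luminal cells 62.1% of all calls were higher with FPKM as deposited, 46.5% after median-of-ratios scaling and 40.4% after quantile normalization, where the median log2 change of all genes shifted by -0.166 and -0.264. In basal over Sca-1+ luminal cells the share was 22.2%, 47.1% and 53% (shifts of 0.265 and 0.368), and in stromal over Sca-1+ luminal cells 13.2%, 32.5% and 37.5% (shifts of 0.224 and 0.22). Every member called with FPKM as deposited was called in the same direction under both scalings, except Itgb8 in stromal over Sca-1+ luminal cells, which was not called under either.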

How the data were processed

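RNA of sorted cells was amplified with random and oligo-dT primers and made into libraries per the labels' protocols; per the submitters' processing notes, bcl2fastq 1.8.3, TopHat, Cufflinks and build mm10 were used, with tool versions otherwise not given in the sources used here. The deposited values are FPKM per UCSC transcript, 63241 in each library, made by the authors. Here 53007 transcripts (83.8%) were given a gene symbol by position, 8006 under 300 nt were left out, and 7 genes with failed estimates were dropped. FPKM were summed per gene. Depth was recovered from isolated transcripts, 92.7% to 94.8% of whose values lay within 0.05 of a whole fragment. Replicates were numbered in listed order.

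Genes at 1 FPKM or more in 2 libraries were tested on log2(FPKM + 1) with limma 3.58.1 (R 4.3.3, trended empirical Bayes, Benjamini-Hochberg) in 1 fit with 6 residual degrees of freedom. The test was checked on simulated data. Alternatives were another pseudocount, no filter, median-of-ratios and quantile scaling, all transcript lengths, 1 transcript per gene, separate pairs of groups, quality weights, single libraries left out and Sca-1+ luminal replicate 3 alone. Every member is named, and of each list the 5 genes highest over all libraries and those in counts of 5 or fewer could be named. Other genes were named for a profile like a member's. A marker gene, left out of its list, and 2 genes with such a profile are not reported here. The members and lists were chosen with earlier results of these data known. Tables were handled with pandas 2.3.3 under Python 3.11.15.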

Additional observations from a re-analysis of the deposited data

How the results depend on the processing

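The same 6 integrin genes were called in Sca-1+ over Sca-1- luminal cells under all 19 alternatives. In Sca-1+ over Sca-1- luminal cells 4364 genes and 6 members were called, with 2698 to 5193 genes and 6 to 9 members when single libraries were left out, and 1995 genes with Sca-1+ luminal replicate 3 alone. The lowest counts were 2698, with Sca-1- luminal replicate 3 left out, and 2725, with Sca-1+ luminal replicate 2 left out. In basal over Sca-1- luminal cells 5734 genes and 7 members were called, with 3678 to 6411 and 5 to 8 (3678 and 3696 genes without basal replicates 1 and 2). In basal over Sca-1+ luminal cells 2459 genes and 2 members were called, with 590 to 3565 and 0 to 4 (792 and 590 genes without basal replicates 1 and 2, and 1473 genes and 1 member without Sca-1+ luminal replicate 2), and 1464 genes and 0 members when only these groups were fitted with limma (3 of the 10 had an unadjusted p under 0.05 there, and 2 had with either basal library left out, where 0 were called). In stromal over basal cells 2800 genes and 3 members were called, with 1133 to 3565 and 2 to 6 (1153 and 1133 genes without basal replicates 1 and 2, 1460 and 1311 without stromal replicates 1 and 2). There, 7 members were called when only these groups were fitted, a fit whose count of all genes is not given here. With quality weights 4568 genes and 7 members were called. In stromal over Sca-1- luminal cells 6543 genes and 4 members were called, with 4326 (without stromal replicate 1) to 7062 and 3 to 5. In stromal over Sca-1+ luminal cells 1656 genes and 2 members were called, with 378 to 3020 and 0 to 5 (378 and 752 genes without stromal replicates 1 and 2, with 2 members at an unadjusted p under 0.05 in each, 1081 and 3020 without Sca-1+ luminal replicates 2 and 1). There, 1 member was called with no filter, either scaling, only these groups (767 genes) or quality weights (989 genes), and 3773 genes and 6 members with replicate 3 alone. The causes were not tested.

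No change that was called turned its direction. Of the uncalled ones, in Sca-1+ over Sca-1- luminal cells Itga1 (-0.63) and Itgb5 (-0.10) turned with replicate 3 alone. In basal over Sca-1+ luminal cells, Itga9 turned to 0.17 with a pseudocount of 0.1, 0.15 with median-of-ratios and 0.42 with quantile scaling, and 1.04 with replicate 3 alone, where it was called. Itgb5 turned to 0.24, 0.16 and 0.66 with the last 3 of these, Itga8 to 0.16 with quantile scaling, and Itga5 to 0.87 and Itgb8 to -0.34 with replicate 3 alone. In stromal over Sca-1+ luminal cells, Itga1 turned to 0.10, 0.12, 0.19 and 1.00 with the same 4 settings, Itga8 to 0.07, 0.06 and 0.18 with the first 3, and Itgb5 to -0.35 with quality weights. With single libraries left out, the uncalled changes that turned ran from -0.63 to 0.46 for Itga9, from -0.5 to 0.43 for Itgb5 and from -0.27 to 0.46 for Itgb8 in basal over Sca-1+ luminal cells. They ran from -0.26 to 0.54 for Itgb5 in stromal over basal cells, and from -0.59 to 0.23 for Itga1 and from -0.35 to 0.57 for Itgb5 in stromal over Sca-1+ luminal cells.

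Of all results compared under the alternatives, 1003 kept direction and side of the threshold, 38 lost the call, 43 gained it and 35 turned or reached 0. Itga8 gave no value where it failed the filter. No paired analysis was possible because the labels carry library numbers but no replicate numbers shared between groups. Itga8 rested on 3 to 327 fragments a library, which limits the precision of its values.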
